A study of Mus musculus with 17 samples.

Results

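The MHC class I genes followed here are 10 of the 18836 genes listed in any of 17 RNA-seq libraries of mouse neural retinal progenitor cells (mNRPCs), a culture grown from the neural retina of adult C57BL/6 mice. The set was selected on a measured value: H2-D1 had the highest expected count of all genes in the libraries with CHIR99021 alone on days 5 and 7, and the other members, H2-K1, B2m, Tap1, Tap2, Tapbp, Psmb8, Psmb9, Psmb10 and Nlrc5, were joined to it by their known roles. The H2-D1 values are therefore given as a description without a test, and the other 9 members were tested within a fit of all genes. Cells were sequenced on day 0, with no treatment in the labels, and on days 1, 3, 5 and 7 in basic medium (BM), in BM with basic fibroblast growth factor (bFGF; B), with the glycogen synthase kinase 3 inhibitor CHIR99021 (C) or with both (BC). The study's methods expand the line in medium that holds both agents, and its text calls day 0 a culture in BM. Each treatment and day is 1 library, so no condition has a replicate. The tests by day and of change over time use the libraries with and without CHIR99021 as 2 estimates of a bFGF state, after a constant CHIR99021 shift. The tests over days 1 to 7 take bFGF, CHIR99021 and day as constant shifts that add up, and the interaction test adds a bFGF by CHIR99021 term. In each, p-values measure departures from the assumed pattern and not the spread between cultures.

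MHC class I molecules show peptides from inside the cell to CD8 T cells. The proteasome cuts proteins into peptides, and its immunoproteasome form replaces the 3 catalytic subunits with those encoded by Psmb8, Psmb9 and Psmb10. The transporter encoded by Tap1 and Tap2 carries peptides into the endoplasmic reticulum, tapasin (Tapbp) holds the empty molecule at the transporter, and the heavy chains encoded by H2-D1 and H2-K1 reach the surface with the light chain beta-2 microglobulin (B2m). Nlrc5 encodes a transactivator of class I promoters, and interferons raise most of these genes in many cell types. Neurons are known for low class I expression in the healthy nervous system.

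Depth was even, with 17571973 to 19428744 summed expected counts per library and a median of 18274989. All 10 members were listed in all 17 libraries, and the lowest expected count of any member was 252, for Psmb9 on day 0. The tissue label was held against markers of retinal progenitors: Pax6, Six3, Nes, Sox2, Hes1 and Sox9 were above 4 FPKM (fragments per kilobase of transcript, scaled to library size) in all 17 libraries, whereas Rax and Six6 did not pass 0.07 FPKM in any and Lhx2 peaked at 2.35. The B and BC libraries of days 5 and 7 stood apart in composition, with edgeR scaling (TMM) factors of 0.754 to 0.816 against 1.01 to 1.13 in the other 12 cultured libraries. In FPKM as deposited, the median gene was lower with bFGF by 0.46 in B and 0.50 in BC on day 7, as differences of log2(FPKM + 1), and changes on the TMM scale are relative to such a shift.

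The class I heavy chain and B2m promoters are known for a compact enhancer with sites for NF-kappaB, interferon regulatory factors, CRE-binding factors and NF-Y. RefSeq promoter windows of build GRCm38.p6, the 250 bases before an annotated start, matched 8 of the 10 members; Tap2 and Nlrc5 had no entry. The letter patterns searched, on both strands, were GGGANTNCC (NF-kappaB site), GAAANNGAA (core of the interferon-stimulated response element), TTCNNNGAA (gamma-activated site), TGACG (core of a CRE) and ATTGG (inverted CCAAT box). Shown are the windows of H2-D1 (chr17:35262844-35263093, plus strand), H2-K1 (chr17:34000334-34000583, minus strand) and B2m (chr2:122147437-122147686, plus strand), the chains of the surface molecule, and of Tap1 (chr17:34187306-34187555, plus strand), which shares 225 bases with the window of the divergent gene Psmb9. Capitals mark the matches, and each sequence runs 5′ to 3′ on the gene's strand.
H2-D1: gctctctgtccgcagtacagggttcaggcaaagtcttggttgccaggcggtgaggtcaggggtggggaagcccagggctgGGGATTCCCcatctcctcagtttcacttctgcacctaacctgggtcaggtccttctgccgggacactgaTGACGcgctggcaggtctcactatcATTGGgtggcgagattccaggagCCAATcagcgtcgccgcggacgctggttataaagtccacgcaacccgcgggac
H2-K1: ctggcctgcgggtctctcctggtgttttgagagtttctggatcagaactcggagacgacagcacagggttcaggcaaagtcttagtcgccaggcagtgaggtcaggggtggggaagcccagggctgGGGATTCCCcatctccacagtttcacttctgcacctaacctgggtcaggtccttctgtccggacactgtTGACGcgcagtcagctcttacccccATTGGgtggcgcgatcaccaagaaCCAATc
B2m: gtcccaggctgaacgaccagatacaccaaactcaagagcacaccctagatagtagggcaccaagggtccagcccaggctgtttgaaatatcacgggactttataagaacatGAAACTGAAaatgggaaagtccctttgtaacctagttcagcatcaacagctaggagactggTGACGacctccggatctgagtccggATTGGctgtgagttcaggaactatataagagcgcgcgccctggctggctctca
Tap1: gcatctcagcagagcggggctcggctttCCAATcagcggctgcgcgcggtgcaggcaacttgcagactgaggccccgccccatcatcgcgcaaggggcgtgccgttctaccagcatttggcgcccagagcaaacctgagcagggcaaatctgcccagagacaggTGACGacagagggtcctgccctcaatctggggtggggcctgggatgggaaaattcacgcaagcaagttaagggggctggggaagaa
The printed windows of H2-D1 and H2-K1 held the same NF-kappaB letters, GGGATTCCC, then TGACG and 2 CCAAT boxes in the same order; H2-K1 had another window, for a different annotated start, with the same NF-kappaB letters and TGACG but 1 CCAAT box. That NF-kappaB pattern occurred in 3.36% of 32851 promoter windows of the same length. B2m held 1 response element core (7.13% of all windows), 1 CRE core (17.8%) and 1 CCAAT box (33.8%). A gamma-activated site pattern (7.02% of all windows) was found in Psmb8 alone among the members, and the Psmb10 window held 0 matches. These matches describe letters in a window and not binding. Each kind of site was searched by a single letter pattern. A window without a match, as H2-D1 and H2-K1 for the response element core, may hold another form of the site.

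H2-D1, the heavy chain on chromosome 17 (GRCm38, 35263094 to 35267497), started from 608 FPKM on day 0, with rank 87 by count. In BM it was at 787, 2185, 2373 and 2039 FPKM on days 1, 3, 5 and 7, and in C at 776, 2721, 2917 and 2572. In B it was at 663, 1653, 2343 and 2327, and in BC at 718, 2301, 3286 and 3462. All 16 cultured libraries were above day 0, by 1.09 times in B on day 1 and up to 5.69 times in BC on day 7. The step came between days 1 and 3, since the 4 libraries of day 1 spanned 663 to 787 FPKM and the lowest library of days 3 to 7 was at 1653.

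By count, H2-D1 led in C on day 5, with 92024 expected counts ahead of 86589 for H2-K1, and again in C on day 7 with 82191 ahead of 79294 for Eef1a1; these are the values that chose the set. The count was higher still in BC on day 7, at 107791, yet there Ftl1, the ferritin light chain, led with 227944. Just outside the rule stood BM, where H2-D1 came next after Eef1a1 on days 5 and 7, with 74887 and 64437. In BC on day 7, H2-D1 had rank 8 despite its higher count, at 0.601% of all counts against 0.444% in C.

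**Figure D1:**
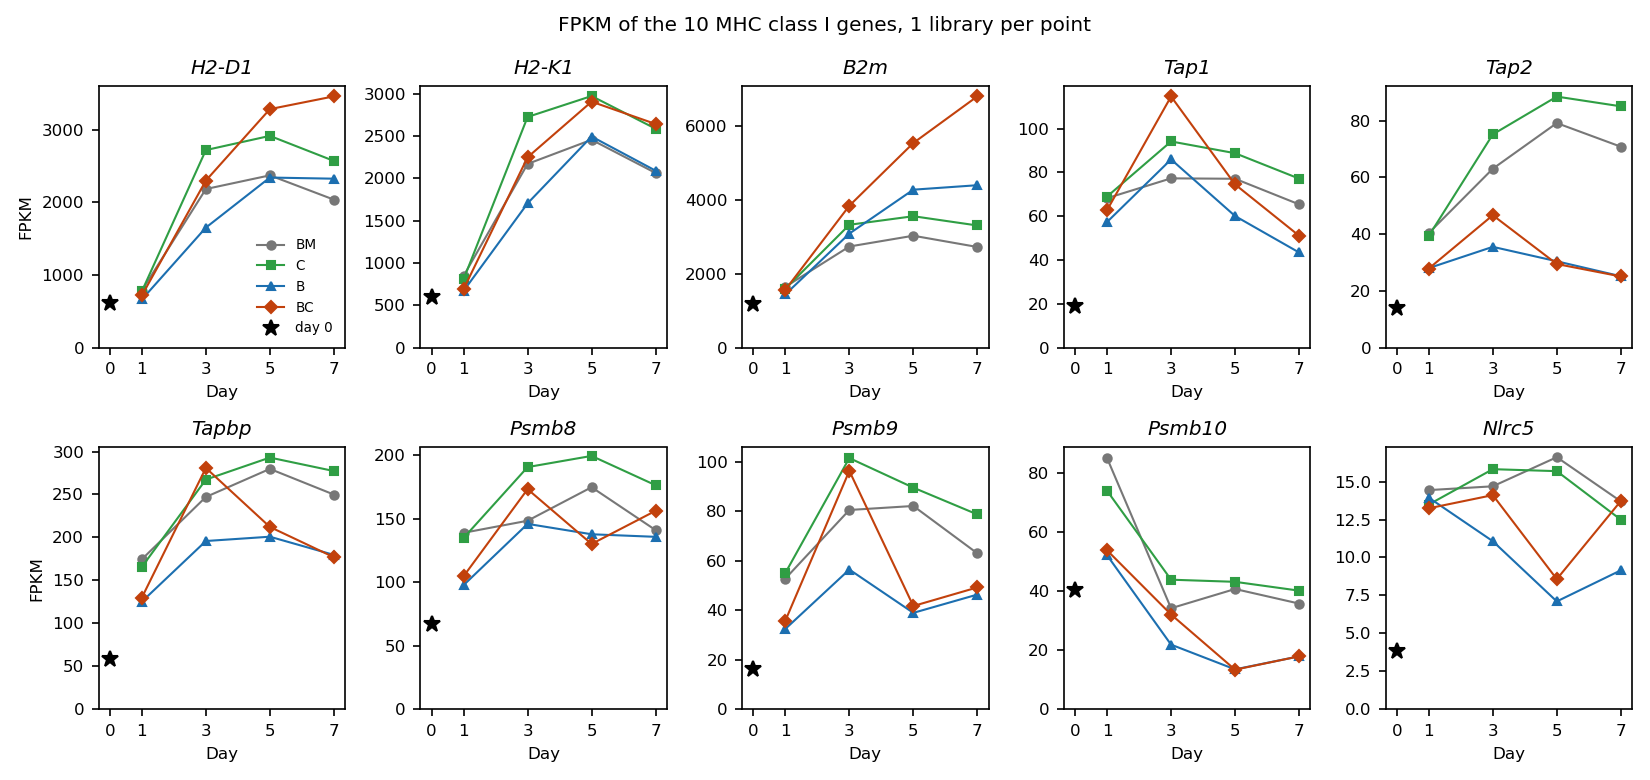
FPKM (vertical axes, from 0, a separate scale per gene) of the 10 genes by day, with 1 point per library, lines joining the libraries of BM, C, B and BC, and a star for day 0. H2-D1, H2-K1 and B2m stood higher on days 3 to 7 than on day 1 in every treatment, Tap2 and Psmb10 lay lower in B and BC than in BM and C on every day, and Psmb10 was below its day 0 level of 40.3 in all 4 libraries of day 7.

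H2-K1, the second classical heavy chain of this strain (chromosome 17, 33996012 to 34000619), followed H2-D1 closely. It was at 602 FPKM on day 0, at 670 to 847 on day 1, and on day 7 at 2063 and 2586 in BM and C and 2090.5 and 2642 in B and BC. Its highest value was 2972, in C on day 5. Across the 17 libraries, which share the day 0 origin and the time trend, log2(FPKM + 1) of H2-D1 and H2-K1 had a Pearson r of 0.991. H2-D1 and H2-K1 are near relatives of each other and of other H2 genes, so that reads could be split between them by the authors' estimation, and their separate values are uncertain to that extent.

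B2m, the light chain (chromosome 2, 122147687 to 122153082), was the most abundant member, with rank 4 of all genes by mean FPKM. It was at 1192 FPKM on day 0 and at 1444 to 1649 on day 1. In BM it then held 2743, 3036 and 2730.0 on days 3, 5 and 7, and in C 3332, 3565 and 3313. In B it climbed to 3093, 4285 and 4406, and in BC to 3849.6, 5551 and 6817. B2m in BC on day 7 was 2.06 times its level in C and 5.72 times that of day 0. The B and BC libraries of days 5 and 7 were above all BM and C libraries for this gene in FPKM. The share of all genes that separate in this way was not counted, and these libraries also stood apart in composition.

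Against day 0, most members were higher at once, although the count differed between treatments with and without bFGF. On day 1 Tap1 and Nlrc5 led: Tap1 was 3.01 to 3.63 times and Nlrc5 3.47 to 3.78 times day 0 in the 4 libraries. Tap2, the other transporter chain, was 2.01 to 2.92 times, and H2-D1 at most 1.29 times. At least 2 times above day 0, on the scale of log2(FPKM + 1), were 7 of 10 members in BM (7.15% of 11258 genes), 6 in C (7.07%), 3 in B (3.71%) and 4 in BC (3.49%) on day 1. By day 7 the counts were 9 in BM (21.1% of genes), 9 in C (21.5%), 8 in B (11.9%) and 8 in BC (12.1%). Psmb10 was the exception in all 4 libraries of day 7, at 0.443 times day 0 in both B and BC, 0.886 times in BM and 0.995 times in C; Tap2 was the other member under the limit in B and BC, at 1.82 and 1.81 times. The counts include H2-D1, whose expected count in C on day 7 helped choose the set. On day 7 it was 3.35, 4.23, 3.82 and 5.69 times day 0 in BM, C, B and BC, so it adds to each count of that day. The counts are therefore a description and not support for the set. All of these are differences between single libraries and have no test.

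From day 1 to day 7 without bFGF (BM and C), 5 of the 9 tested members rose and 1 fell in edgeR, against 32.3% of 11272 genes higher and 31.5% lower. H2-K1 rose by a log2 fold change of 1.45 (SE 0.13, adjusted p = 1.23e-06) and B2m by 0.86 (SE 0.14, adjusted p = 0.000203). Tap2 rose by 0.94 (SE 0.11, adjusted p = 1.67e-05) and Tapbp by 0.60 (SE 0.12, adjusted p = 0.000689). Psmb9 rose by 0.37 (SE 0.14, adjusted p = 0.0357), a call that ended when any 1 of 9 libraries was left out, C of day 1 (0.22, adjusted p = 0.321) and C of day 7 (0.28, adjusted p = 0.211) among them. Psmb10 fell by 1.10 on the log2 scale (SE 0.14, adjusted p = 2.9e-05). Tap1 (0.02), Psmb8 (0.18) and Nlrc5 (-0.12) did not pass; Tap1 was at 68.2 FPKM in BM on day 1 and 65.4 on day 7.

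With bFGF (B and BC), 6 of 9 members rose from day 1 to day 7 and Psmb10 fell, where 35.8% of genes were higher and 39.5% lower. H2-K1 and B2m rose by 2.31 and 2.32 (SE 0.13 and 0.15), and Tapbp, Psmb8 and Psmb9 by 0.92, 0.97 and 0.96. Tap2 passed at 0.28 (SE 0.11, adjusted p = 0.0393), but on the FPKM scale as deposited it turned to -0.15, and 12 of the 16 fits that each left out 1 library lost the call, at 0.19 to 0.34. In B, Tap2 was at 28.0 FPKM on day 1, 35.5 on day 3 and 25.2 on day 7. Tap1 did not pass (0.09) and turned to -0.34 on the FPKM scale (limma adjusted p = 0.00408), and Nlrc5 did not pass (0.14). Psmb10 fell by 1.13 on the log2 scale (SE 0.15, adjusted p = 1.78e-05).

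The study asked what bFGF and CHIR99021 each do to these cells. Over days 1 to 7, the light chain B2m was higher with bFGF and the transporter subunit Tap2 and the immunoproteasome subunits Psmb9 and Psmb10 were lower, while the other 5 tested members did not pass. The B2m difference of 0.67 (SE 0.19, adjusted p = 0.00857) did not pass in limma on log2(FPKM + 1) (0.38, adjusted p = 0.0541) and turned to -0.38 after quantile normalization, and that of Psmb9 (-0.33, adjusted p = 0.0139) did not pass without day 1 (-0.26, adjusted p = 0.0759). Thus 1 of 9 tested members was higher and 3 of 9 lower, against 34.6% and 33.9% of all genes. The bFGF difference varied with day for 8 of 9 members, against 76.3% of genes. The BM, C, B and BC libraries enter every one of these contrasts, so the contrasts share their samples.

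**Figure D2:**
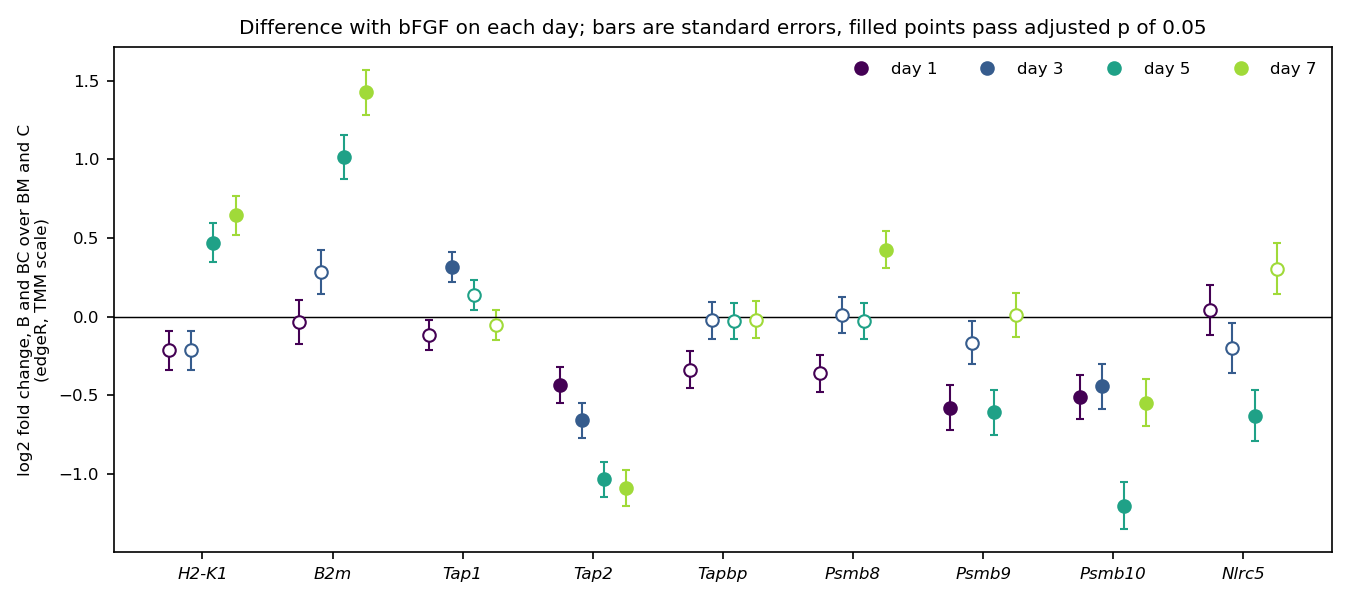
Log2 fold change of B and BC over BM and C (vertical axis, edgeR on the TMM scale) for the 9 tested members on days 1, 3, 5 and 7, with standard errors as bars and filled points for an adjusted p under 0.05. Tap2 and Psmb10 lie below 0 on all 4 days, whereas H2-K1 and B2m move from at or below 0 on day 1 to 0.65 and 1.43 on day 7.

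Tap2, one chain of the peptide transporter (chromosome 17, 34204479 to 34216321), had the largest fitted difference of the tested members over days 1 to 7 (-0.80, SE 0.10, adjusted p = 8.83e-05), though not on each day. It was at 13.8 FPKM on day 0 and at 40.4, 63.1, 79.2 and 70.9 in BM on days 1, 3, 5 and 7. In C it was at 39.4, 75.2, 88.5 and 85.1, in B at 28.0, 35.5, 30.4 and 25.2, and in BC at 27.9, 46.7, 29.5 and 25.1. Each B or BC library was below its BM or C counterpart in 8 of 8 pairs, and BC held 0.295 times the level of C on day 7. The median gene was also lower with bFGF in each of these pairs, with log2(FPKM + 1) differences of -0.03 to -0.50. The share of all genes lower in 8 of 8 pairs was not counted, here or for the pair counts of the members below. The edgeR difference of Tap2 went from -0.43 (SE 0.11, adjusted p = 0.0321) on day 1 to -0.66, -1.03 and -1.09 on days 3, 5 and 7 (day 7 adjusted p = 2.38e-06), with an adjusted p of 0.00725 for the variation with day. The sign was the same in every fit, on all scales, while the call of day 1 ended without any 1 of the 4 day 1 libraries (-0.37 to -0.55, adjusted p 0.0550 to 0.257).

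Tap1, the other chain (chromosome 17, 34187556 to 34197225), behaved unlike Tap2. It peaked on day 3 with bFGF, at 85.9 and 115 FPKM in B and BC against 77.3 and 94.1 in BM and C, and was at 43.4 and 51.1 in B and BC and at 65.4 and 77.1 in BM and C on day 7. On day 3 edgeR called it higher with bFGF (0.32, SE 0.09, adjusted p = 0.0144), a call lost without BM or BC of day 3 (0.29 and 0.22) and on the FPKM scale (0.22, limma adjusted p = 0.0614). On day 7 it was at -0.05 (adjusted p = 0.641) on the TMM scale and at -0.58 on the FPKM scale as deposited (limma adjusted p = 6.82e-05). The ratio of Tap1 to Tap2 in FPKM was 0.923 in BM and 0.907 in C on day 7 but 1.73 in B and 2.04 in BC, and the 8 libraries with bFGF (1.73 to 2.53) overlapped those without (0.907 to 1.75) only through C on day 1. This ratio does not depend on the scaling of a library.

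Tapbp, which bridges the empty heavy chain and the transporter (chromosome 17, 33919478 to 33929290), rose from 58.6 FPKM on day 0 to 125 to 175 on day 1, and was at 249.9 and 277 in BM and C and 179.6 and 177 in B and BC on day 7. It did not pass for bFGF over the days (-0.10, SE 0.09, adjusted p = 0.308) or for variation with day (adjusted p = 0.218). In FPKM it was nevertheless lower with bFGF in 7 of 8 pairs, and limma on log2(FPKM + 1) gave -0.39 (adjusted p = 0.00106), so the call depends on the scale.

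Among the immunoproteasome subunits, Psmb10 (chromosome 8, 105935728 to 105938392) was lowest relative to day 0. From 40.3 FPKM on day 0 it went to 85.0, 34.1, 40.6 and 35.7 in BM and to 73.9, 43.8, 43.1 and 40.1 in C. In B it went to 52.1, 21.8, 13.4 and 17.9, and in BC to 53.7, 32.0, 13.3 and 17.9. All 8 pairs were lower with bFGF, on day 5 by 1.20 on the log2 scale in edgeR (SE 0.15, adjusted p = 1.3e-05) and on day 7 by 0.54 (SE 0.15, adjusted p = 0.00463). The direction was the same on every scale and without any library, although the call of day 1 (-0.51) ended without BM, B or BC of day 1 (-0.34, -0.59 and -0.49) and that of day 3 (-0.44) without C or B of day 3 (-0.29 and -0.22).

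Psmb9 (chromosome 17, 34182030 to 34187330) went from 16.1 FPKM on day 0 to 63.0 and 78.8 in BM and C and 46.3 and 49.2 in B and BC on day 7, with its highest value, 102, in C on day 3. It was lower in B or BC in 8 of 8 pairs by FPKM, and in edgeR lower on day 1 (-0.58) and day 5 (-0.61, SE 0.14, adjusted p = 0.00179) but at 0.01 on day 7, where the FPKM scale gave -0.55. The call of day 1 ended without BM, B or BC of that day (-0.49, -0.66 and -0.55). Psmb8 (chromosome 17, 34198195 to 34201454) was at 66.8 FPKM on day 0 and on day 7 at 141 and 176 in BM and C and 136 and 156 in B and BC. EdgeR called Psmb8 higher with bFGF on day 7 (0.43, SE 0.12, adjusted p = 0.00494), whereas FPKM as deposited put it lower in 8 of 8 pairs and at -0.11 on day 7; without BM of day 7 the call was lost (0.32, adjusted p = 0.0650).

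For the surface chains, the fitted bFGF difference was larger on days 5 and 7 than on day 1. H2-K1 was at -0.21 on days 1 and 3 and higher with bFGF on day 5 (0.47, SE 0.12, adjusted p = 0.00426) and day 7 (0.65, SE 0.13, adjusted p = 0.000445) on the TMM scale, but at -0.01 and 0.02 on these days in FPKM as deposited and at -1.03 and -1.24 after quantile normalization. B2m was at -0.04 on day 1 and higher by 1.01 on day 5 (SE 0.14, adjusted p = 3.1e-05) and 1.43 on day 7 (SE 0.14, adjusted p = 1.55e-06), with FPKM differences of 0.69 for B and 1.04 for BC on day 7 and reversals after quantile normalization, to -0.71 on day 5 and -0.47 on day 7. Quantile normalization gives the top genes of each library the same values by construction. H2-D1 in FPKM was lower with bFGF on day 1 (0.843 times in B and 0.926 in BC) and day 3 (0.757 and 0.846) and higher on day 7 (1.14 and 1.35).

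Nlrc5 (chromosome 8, 94434335 to 94527272) was the least abundant member, at 3.82 FPKM on day 0 and 13.2 to 14.4 on day 1. It was lower with bFGF on day 5 (-0.63, SE 0.16, adjusted p = 0.00361), at 7.10 and 8.57 FPKM in B and BC against 16.6 and 15.7 in BM and C, and did not pass over the days (-0.12, adjusted p = 0.416). On day 7, B held 9.15 and BC 13.7 FPKM, beside 13.7 in BM and 12.5 in C, and the difference of 0.31 did not pass unless B of day 7 was left out (0.58, adjusted p = 0.00479).

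By day, edgeR called 0 of 9 members higher and 3 lower with bFGF on day 1 (6.21% and 4.46% of genes), 1 higher and 2 lower on day 3 (25.4% and 25%), 2 higher and 4 lower on day 5 (37.2% and 38.6%) and 3 higher and 2 lower on day 7 (38.8% and 39.6%). The 3 lower on day 1 were Tap2, Psmb9 and Psmb10. This count went to 0 without BM, B or BC of day 1. On days 5 and 7 calls in both directions were common among all genes as well. With 9 members, no share was tested against the background.

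CHIR99021 gave smaller and mostly positive differences. The 6 pairs of days 3 to 7 set C against BM and BC against B. Of the 9 tested members, H2-K1, B2m, Tap1 and Psmb9 were higher in FPKM with CHIR99021 in 6 of 6 pairs. So were 9.8% of all genes tested. H2-D1 was also higher in 6 of 6 pairs. It is left out of this comparison, since its counts in C on days 5 and 7 chose the set. H2-D1 was 1.23 to 1.26 times BM in C and 1.39 to 1.49 times B in BC on days 3 to 7, but 0.986 and 1.08 times on day 1. B2m in BC was at 1.24, 1.30 and 1.55 times B on days 3, 5 and 7, and H2-K1 at 1.32, 1.17 and 1.26 times. Psmb9 was at 96.4 FPKM in BC and 56.5 in B on day 3. The median gene moved by -0.05 to 0.03 in these pairs, so the scale bears less on them than on bFGF.

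None of these differences passed the test. EdgeR called 0 of 9 members for CHIR99021 over days 1 to 7, against 0.0532% of genes higher and 0.284% lower, and DESeq2 and limma also called 0. At an unadjusted p under 0.05, edgeR gave 2 of 9 members, Tap1 and Psmb9, beside 9.99% of genes. The lowest adjusted p was that of Tap1 (0.24, SE 0.08, adjusted p = 0.259). H2-K1 was at 0.24 (SE 0.15, adjusted p = 0.685) and B2m at 0.29 (SE 0.19, adjusted p = 0.718). The bFGF by CHIR99021 interaction called 0 of 9 members and 0.00887% of genes in edgeR, with 0 of 9 members at an unadjusted p under 0.05 beside 1.58% of genes, and 0 members in DESeq2 and limma.

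**Figure D3:**
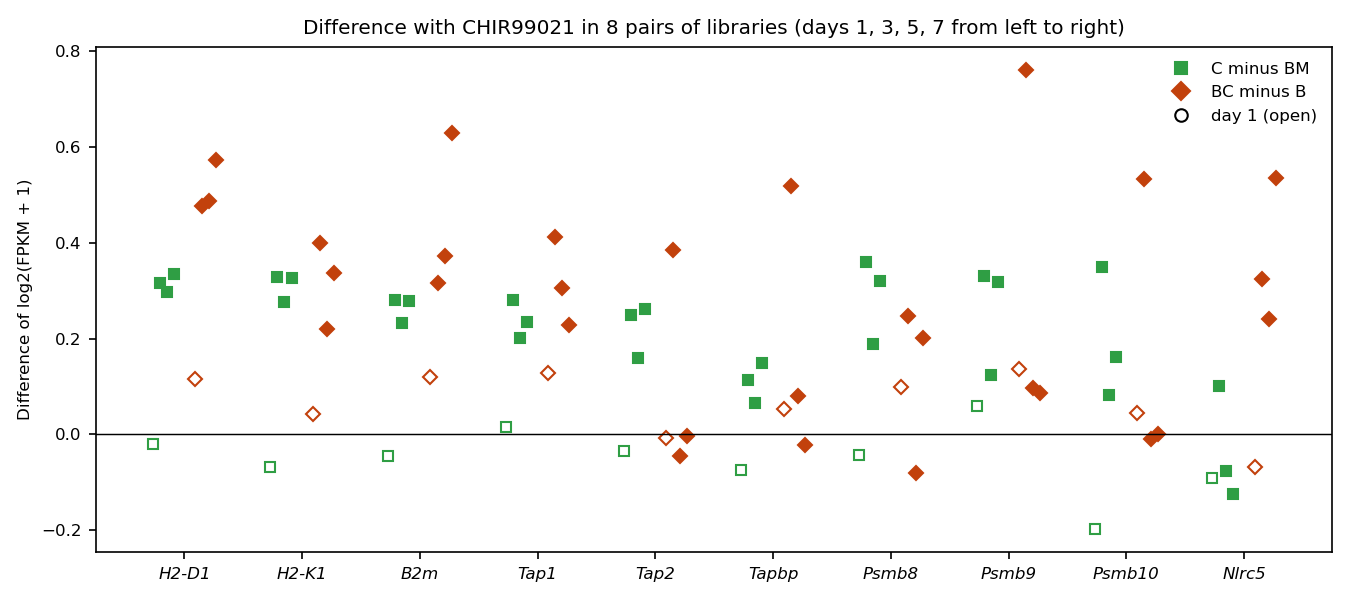
Difference of log2(FPKM + 1) between a library with CHIR99021 and its counterpart without (vertical axis) for the 10 genes, with squares for C minus BM, diamonds for BC minus B, and open symbols for day 1. On days 3 to 7 the H2-D1 points span 0.30 to 0.57 and all lie above 0, whereas Nlrc5 spans -0.12 to 0.54. H2-D1 was chosen on its counts in C libraries that enter these points, so its points are a description only.

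Set per length beside their constitutive counterparts, the immunoproteasome subunits Psmb8 and Psmb9 had higher shares in all 16 cultured libraries than on day 0. The highest were on day 3 in C (67.7% and 58.5%), whereas Psmb10 was below its day 0 share in B and BC on days 5 and 7. Psmb5, Psmb6 and Psmb7 were themselves highest on day 0, at 208, 155 and 252 FPKM, so a share also rises where they fall. In BM on day 5 the Psmb10 share was 27.9% with its own FPKM at 1.01 times day 0. Psmb8 and Psmb9 FPKM were above day 0 in all 16. Psmb8 was 24.3% of the summed FPKM of Psmb8 and Psmb5 on day 0, 36.0% to 45.1% on day 1 and 55.3% to 59.7% on day 7, where the 4 treatments lay close together. Psmb9 was 9.41% of Psmb9 and Psmb6 on day 0 and on day 7 42.9% and 46.4% in BM and C and 33.6% and 37.9% in B and BC. Psmb10 was 13.8% of Psmb10 and Psmb7 on day 0, 21.3% to 32.1% on day 1, and on day 7 22.4% in BM and 25.2% in C but 10.6% in B and 13.1% in BC.

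The heavy chains also shifted against each other and against B2m. H2-D1 over H2-K1 lay at 0.928 to 1.01 in the 8 libraries without bFGF and reached 1.11 in B and 1.31 in BC on day 7. On days 1, 3 and 5 it was at 0.989, 0.970 and 0.940 in B and at 1.04, 1.02 and 1.13 in BC. Since reads could be split between these near relatives, the ratio is uncertain to that extent. The summed heavy chains over B2m were 1.02 on day 0 and 1.502 to 1.65 in BM and C from day 3 on, but 0.895 to 1.18 in B and BC over the same days. How often ratios of other genes separate in this way was not counted. H2-D1 over Tap2 was 28.8 in BM and 30.2 in C on day 7 against 92.5 in B and 138 in BC.

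**Figure D4:**
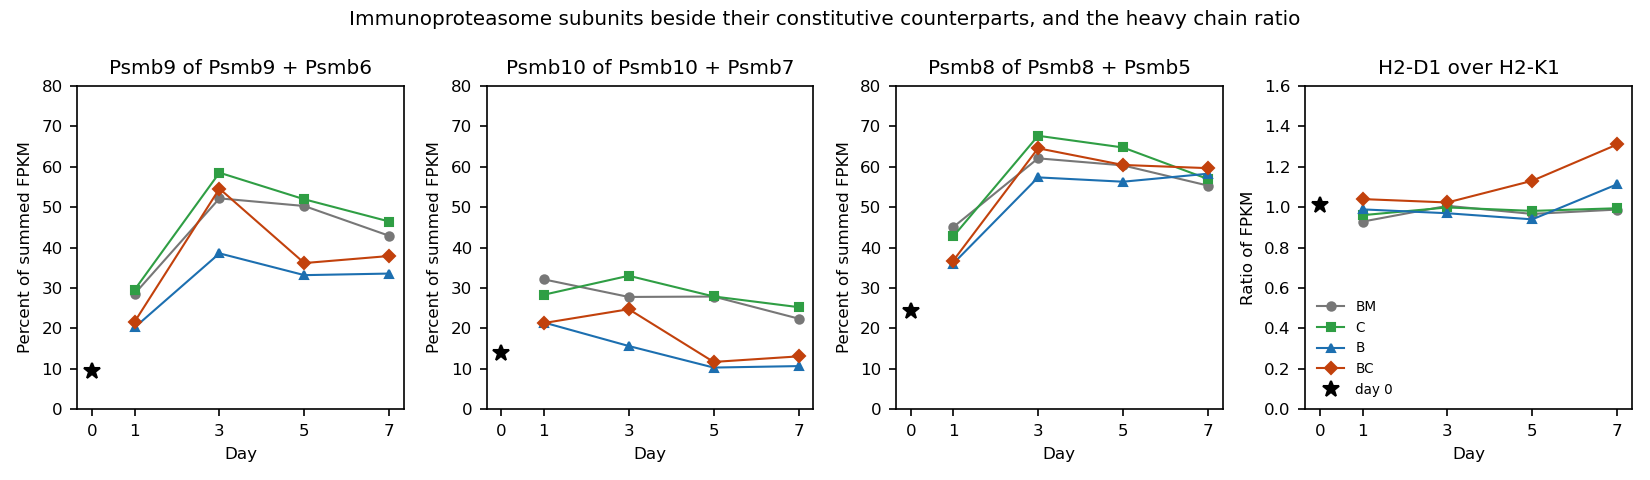
Share of each immunoproteasome subunit in the summed FPKM of itself and its constitutive counterpart (percent, first 3 panels) and FPKM ratio of H2-D1 to H2-K1 (last panel) by day, with 1 point per library and a star for day 0. The Psmb10 share ends at 10.6% and 13.1% in B and BC against 22.4% and 25.2% in BM and C, and the heavy chain ratio reaches 1.31 in BC.

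The other class I and class I-like heavy chains were mostly higher on day 7 than on day 1: of 15 tested, 13 rose and 1 fell from day 1 to day 7 without bFGF, and 11 rose and 0 fell with bFGF, against 32.3% and 31.5% of all genes without and 35.8% and 39.5% with bFGF, with median log2 fold changes of 1.01 and 1.74 (all genes, 0.02 and -0.04). H2-Q4 and H2-T23 were picked here after their values were seen, for their abundance. H2-Q4 went from 111 FPKM on day 0 to 380.0 in BM and 415 in BC on day 7, and H2-T23, a nonclassical chain read by natural killer cells, from 37.2 to 236 and 308. For the bFGF contrasts here and below, 34.6% of all genes were higher and 33.9% lower over days 1 to 7, and 38.8% and 39.6% on day 7, with medians of -0.00 and -0.01; the lists were not tested against these shares. Of these heavy chains, 6 were higher and 2 lower over days 1 to 7 (median 0.19), and 7 and 4 on day 7 (median 0.40). The largest differences on day 7 were in H2-Q2 (2.47), H2-Q1 (1.84), Mill2 (1.36) and H2-Q7 (1.11), of which H2-Q7 was at 105 FPKM in BM and 197 in BC and the other 3 did not pass 11 FPKM. The H2-Q genes are near copies, and their counts may be split among them.

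Of 10 tested helpers of peptide loading, trimming and folding, 6 were higher and 2 lower with bFGF over days 1 to 7 (median 0.34), and 8 and 2 on day 7 (median 0.47), of which 5 of the 8 turned to lower in FPKM as deposited. The chaperones Pdia3 (1.26), Calr (1.17) and Canx (0.90), which serve many glycoproteins, were higher on day 7, and Erap1, which trims peptides for class I in the endoplasmic reticulum, was lower (-1.23). The peptidases Lnpep (0.38) and Npepps (0.29), named here after their values were seen, were called higher and were among the 5 that turned. Calr was at 365 and 429 FPKM in BM and C and at 619 and 607 in B and BC, whereas Erap1 was at 21.6 and 21.1 against 7.75 and 5.29. The 3 chaperones were also higher in FPKM as deposited, but Calr turned to -0.21 after quantile normalization.

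Of 8 constitutive catalytic proteasome subunits and activators, 4 were higher and 1 lower with bFGF over the days (median 0.08), and 5 and 2 on day 7 (median 0.38); 3 of those 5 were lower in FPKM as deposited. Pomp, the assembly factor, was higher on day 7 (1.49; 92.0 and 93.9 FPKM in BM and C, 177 and 181 in B and BC), and Psme3, an activator cap, lower (-0.63). Psmb7 was at 0.70 and Psmb6 at 0.52, the latter at -0.02 in FPKM, and Psmb5 did not pass (0.26, adjusted p = 0.0765). Without bFGF, Psmb5, Psmb6 and Psmb7 fell by 0.53, 0.62 and 0.63 on the log2 scale from day 1 to day 7.

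Of 20 transcription factors of class I promoters, 3 were higher and 10 lower with bFGF over days 1 to 7 (median -0.16), and 6 and 8 on day 7 (median -0.14). Among interferon regulatory factors, Irf8 (-2.02), Irf3 (-1.79) and Irf9 (-0.36) were lower on day 7, as was Nfyc, an NF-Y subunit (-2.29), with Irf3 at 9.24 FPKM in B and 54.5 in BM. Irf1 went the other way, at 84.7 and 94.4 FPKM in BM and C and 146 and 123 in B and BC (1.13, SE 0.13, adjusted p = 4.7e-06). Irf7 was at 76.1 FPKM on day 0, 260 to 405 on day 1 and 546 to 820.0 on day 7; its call of 0.63 on day 7 turned to -0.95 after quantile normalization. Irf2 (0.45) turned to -0.09 in FPKM, and Rfx5, a class I and II promoter factor, did not pass on day 7 (-0.27, adjusted p = 0.0803).

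**Figure D5:**
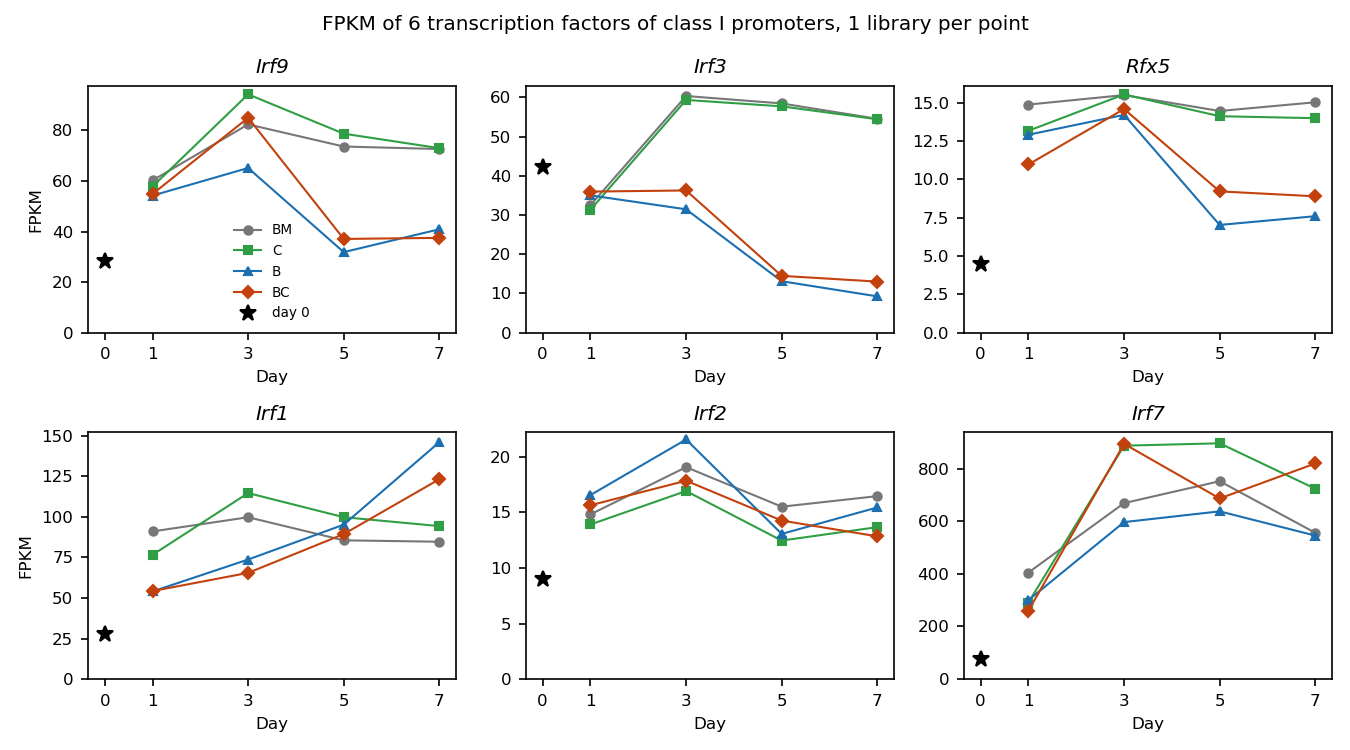
FPKM of 6 transcription factors by day (vertical axes from 0, a separate scale per gene), with 1 point per library, lines joining BM, C, B and BC, and a star for day 0. Irf9, Irf3 and Rfx5 lie lower in B and BC than in BM and C on days 5 and 7, and Irf1 lies higher on day 7.

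Interferon transcripts themselves were hardly listed. Ifng, Ifnl2 and Ifnl3 were at 0 in all 17 libraries, and Ifnb1 did not pass 0.57 FPKM. Their receptors were present, with Ifngr1 at 20.9 to 42.9 FPKM and Ifngr2 at 18.3 to 45.6. Of 10 interferon ligands, receptors and kinases tested, 3 were higher and 2 lower with bFGF over days 1 to 7 (median 0.13), and 5 and 1 on day 7 (median 0.22), with Socs3 lower (-1.30) and Socs1 (0.83), Tyk2 (0.83) and Jak1 (0.42, but -0.14 in FPKM) higher; Ifngr1 and Ifngr2 did not pass (0.17 and -0.21).

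Interferon-stimulated genes outside the members had a summed FPKM of 2743 on day 0, 5923 to 7881 without bFGF and 4281 to 7968 with it. Of 38 tested, 6 were higher and 21 lower with bFGF over days 1 to 7 (median -0.33, all genes 34.6% and 33.9%). On day 7, 9 were higher and 20 lower (median -0.39, all genes 38.8% and 39.6%). No call of higher in this list turned to lower in FPKM as deposited. Calls of lower turned in none of the lists, on a scale that puts the median gene lower with bFGF. Irgm2, Iigp1 and Irgm1, interferon-induced GTPases, and Parp14 led the lower ones on day 7 (-3.36, -2.49, -2.28 and -2.26). Irgm2 was at 8.05 FPKM on day 0, 37.1 to 56.4 on day 1, and on day 7 at 65.1 in BM and 59.6 in C but 4.54 in B and 3.82 in BC. From day 1 to day 7, 2 rose and 19 fell without bFGF (all genes 32.3% and 31.5%) and 5 rose and 25 fell with it (35.8% and 39.5%).

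MHC class II genes stayed low. Ciita, their master regulator, did not pass 0.10 FPKM, Cd74, the invariant chain, did not pass 1.86, and 7 of 11 list members never reached 1 FPKM. Of 3 tested, 2 were higher with bFGF over days 1 to 7 and 3 on day 7: H2-DMb1 (1.32; 14.2 and 15.7 FPKM in BM and C, 25.9 and 25.3 in B and BC), H2-DMa (1.62) and Cd74 (0.85, adjusted p = 0.039).

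Markers of other cell types that carry much class I were examined in full. Of 14 markers of microglia and macrophages, 11 never reached 1 FPKM, Ptprc did not pass 0.06 and Csf1r 0.38; their sum was 1.39 on day 0, 1.72 to 7.08 without bFGF and 2.38 to 82.4 with it, carried by Cd68, a lysosomal protein, at 79.8 FPKM in B on day 7 (5.21, SE 0.49, adjusted p = 9.42e-07). It was the 1 tested of that list, higher over days 1 to 7 as well. All 10 lymphocyte markers stayed under 1 FPKM, with Cd3e, Nkg7 and Gzmb at 0 throughout and sums of 0.43 to 0.68 without and 0.25 to 0.59 with bFGF. Endothelial markers summed to 2.0 to 5.54 without and 2.47 to 6.22 with bFGF; 7 of 10 never reached 1 FPKM, and the 2 tested, Flt1 (1.06) and Egfl7 (0.85), were higher on day 7 and over the days. Retinal pigment epithelium markers did not exceed a sum of 2.05, and 0 of 8 was tested. The part of Cd68-expressing cells in the bFGF differences was not tested.

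Other markers did move with the bFGF contrast. Fibroblast and pericyte markers summed to 4.56 FPKM on day 0, 16.2 to 163 without bFGF and 7.8 to 38.8 with it, and all 4 tested were lower with bFGF over days 1 to 7 and on day 7, with Col1a1 at 25.9 and 45.2 FPKM in BM and C and 0.14 and 0.25 in B and BC (-6.97), Pdgfrb at -3.58, Dcn at -1.95 and Pdgfra at -0.79. Of 6 tested retinal progenitor markers, 0 were higher and 4 lower over the days and 3 lower on day 7, namely Pax6 (-2.99), Six3 (-0.92) and Nes (-0.56), with sums of 167 to 436 without and 115 to 225 with bFGF. Of 4 tested Muller glia and astrocyte markers, 2 were higher and 1 lower in both contrasts, with Vim (2.01) and Glul (0.95) higher and Apoe (-0.70) lower on day 7; their sums, carried by Vim, were 1392 to 2686 without and 1664 to 4367 with bFGF. The part of these markers in the bFGF differences of Tap2, Psmb10 and B2m was not tested, and in bulk RNA fewer cells of a type and less RNA per cell cannot be told apart.

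The genes outside the set whose log2(FPKM + 1) followed H2-D1 most closely over the 17 libraries were Inafm1 (Pearson r 0.987), Ctsa (0.987), Ergic3 (0.987), Pld3 (0.985) and Vkorc1 (0.980). Ctsa, a lysosomal protease, went from 28.8 FPKM on day 0 to at most 152, and Pld3 from 21.9 to at most 217. Within the set, H2-D1 followed H2-K1 (0.991) and B2m (0.941) more closely than Tapbp (0.762), Psmb8 (0.753), Psmb9 (0.614), Tap2 (0.475), Tap1 (0.456) or Nlrc5 (0.228), and ran opposite to Psmb10 (-0.649). Psmb8, Psmb9 and Tapbp followed one another at 0.931 to 0.948. These coefficients describe 17 libraries with a common time course and carry no test.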

How the data were processed

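RNA from 17 mNRPC libraries was sequenced on a BGISEQ-500. The submitters' processing notes name Bowtie2, RSEM and mm10, while the study's methods name eXpress for the estimation. Per gene the authors deposited an expected count, a length and FPKM; genes not listed in a library were set to 0. Expected counts were rounded and tested with edgeR 4.0.16 quasi-likelihood fits (R 4.3.3, TMM) of 16 cultured libraries, for the 11272 genes whose FPKM averaged 1 or more: bFGF, CHIR99021 and day; their interaction; and bFGF by day with a common CHIR99021 term. Calls are at a Benjamini-Hochberg adjusted p under 0.05. Day 0 was compared in log2(FPKM + 1) without a test. DESeq2 1.42.0, limma 3.58.1 on FPKM, other filters and left-out libraries were alternatives. The members and lists were chosen with earlier results of these data known. Named were all members, up to 4 called genes per list with the largest day 7 change, some regulators whatever they showed, and the 5 genes most like H2-D1. The fitting scripts were tested on simulated data. Some genes of the lists are not reported here by name.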

Additional observations from a re-analysis of the deposited data

Results flagged for a closer look

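The bFGF difference varied between days for 8 of the 9 tested members in a test of the variation itself, the bFGF by day term in edgeR over 16 libraries. The adjusted p was 0.000132 for B2m and 0.00109 for H2-K1, which went from -0.04 and -0.21 (log2) on day 1 to 1.43 and 0.65 on day 7. It was 0.00725 for Tap2 (-0.43 to -1.09) and 0.00720 for Psmb8 (-0.36 to 0.43). It was 0.0148 for Nlrc5, which was lowest on day 5 (-0.63), 0.0178 for Psmb10, also lowest on day 5 (-1.20), 0.0293 for Psmb9 (-0.58 on day 1, 0.01 on day 7) and 0.0384 for Tap1, which was highest on day 3 (0.32). Of all genes, 76.3% passed the same test.

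The calls of H2-K1, B2m, Tap2 and Psmb8 for this term held without any 1 library, but limma on log2(FPKM + 1) lost those of H2-K1 (adjusted p = 0.129) and Psmb8 (0.0529), and after quantile normalization those of B2m (0.272), Psmb8 (0.0725) and Psmb9 (0.0771) were lost. That of Nlrc5 was lost without BM (adjusted p = 0.0606) or B of day 5 (0.0556), that of Psmb10 without BM (0.0615) or BC of day 5 (0.106), that of Psmb9 without any 1 of 7 libraries (0.0515 to 0.0746) and that of Tap1 without any 1 of 6 (0.0501 to 0.104).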

How the results depend on the processing

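Of the alternatives for the fold changes of the members, 2201 kept direction and call, 44 gained a call, 76 lost one and 25 reversed; 24 values of H2-D1, which has no test, moved by over 1 SE. Of the counts of members called, 238 stayed within 1.5 times and 15 did not. For bFGF over days 1 to 7 (4 called), limma gave 7 with a pseudocount of 0.1 and 7 after quantile normalization. For day 1 (3 called), DESeq2 gave 5, limma 5 on each of its scales and the 4 libraries of that day alone 5, and leaving out 1 library gave 0 to 5; for day 3 (3 called), the 4 libraries of that day alone gave 0. For bFGF by day (8 called), leaving out 1 library gave 5 to 9. In B on day 1, a pseudocount of 0.1 put 5 members past 2 times day 0.

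Reversals came with limma on FPKM. With pseudocounts of 1 and 0.1, Psmb8 over days 1 to 7 was at -0.28 and -0.28, H2-K1 on day 5 at -0.00520 and -0.00520, Tap1 on day 5 at -0.30 and -0.31, Psmb8 on day 7 at -0.11 and -0.12, Psmb9 on day 7 at -0.55 and -0.56, and Tap1 and Tap2 from day 1 to 7 with bFGF at -0.34, -0.35, -0.15 and -0.15. After quantile normalization, Psmb8, H2-K1 and B2m over the days were at -0.40, -0.845 and -0.38, H2-K1, Tap1 and B2m on day 5 at -1.03, -0.31 and -0.71, Psmb8, Psmb9, H2-K1 and B2m on day 7 at -0.39, -0.53, -1.24 and -0.47, and Tap1 with bFGF over time at -0.27. FPKM as deposited keep the shift of the median gene that TMM removes, and quantile normalization sets the value of each rank equal across libraries.

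The count over all genes ranged from 1 to 281 for CHIR99021 (38 in the main test), 0 to 5 for the interaction (1), 145 to 1784 for bFGF on day 1 (1203) and 2534 to 6013 on day 3 (5680). Without a replicate of any condition, the depth of the libraries does not set the precision. No paired analysis was possible because the labels give no replicate numbers; the pairs used in the text match libraries by day and treatment only.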
